A study of Homo sapiens with 6 samples.

Results

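The genes of the unfolded protein response and of quality control in the endoplasmic reticulum (ER) were examined at their promoters for acetylated histone H4 (H4ac). The list held 42 genes, of which 19 serve folding, 11 degradation, 5 stress sensing and 7 the entry or exit of proteins. A promoter region was a deposited H4ac region that carried the gene's name and lay within 1000 bp of its start site, and a gene with several was represented by the region with most reads in both libraries together. Such a region was present for 37 of 42 genes in the shTIP60-B table, out of 11541 genes with one, and for 38 of 42 in the shTIP60-C table, out of 11549. The cells were H1975, an established lung adenocarcinoma line with mutant EGFR, that carried a tetracycline-inducible hairpin. The hairpins shTIP60-B and shTIP60-C target TIP60 (gene KAT5), a lysine acetyltransferase with histone H4 among its substrates, and shControl is the control hairpin. All 3 groups had been given doxycycline at 0.5 ug/ml for 2 days, the control included. Each group had 1 H4ac library, so differences between groups could not be set against a spread between replicates, and a deposited p compares a pair of libraries rather than conditions. Both knockdown libraries were set against the same control library, so their ratios share its error.

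Proteins that enter the secretory pathway fold in the ER with the help of the chaperone BiP (HSPA5), its co-chaperones, the lectins calnexin and calreticulin, and disulfide isomerases. Proteins that fail to fold are extracted to the cytosol and degraded, a process called ER-associated degradation. When unfolded proteins build up, the sensors IRE1 (ERN1), ATF6 and PERK start the unfolded protein response, and the factors XBP1 and ATF6 raise the transcription of chaperone and degradation genes. H4ac marks active promoters and enhancers, so these promoters show the state of the response's genes in chromatin. Secretory and tumour cells depend on this response when their protein load is high.

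These factors act through short promoter elements, which are shown where their letters occur. A match alone does not show that the response reaches the gene directly. In the RefSeq promoters of GRCh38.p14, from 250 bases before to 50 after each start site, the ER stress element (ERSE, CCAAT, any 9 bases, CCACG) was searched on both strands. It was found in 0.0769% of 35116 promoters, and in 8 of the 38 member genes with a promoter sequence at hand, which have 47 promoters. No promoter sequence was at hand for the other 4. The sequences below run along the gene's strand, and the capitals mark the element, which reads as its reverse complement where it starts with CGTGG.
CALR, chr19:12938372-12938414, plus strand: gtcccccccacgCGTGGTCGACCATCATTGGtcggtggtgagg
CANX, chr5:179698766-179698808, plus strand: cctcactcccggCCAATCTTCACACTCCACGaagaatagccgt
CRELD2, chr22:49918542-49918584, plus strand: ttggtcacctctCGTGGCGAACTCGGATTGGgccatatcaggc
ERO1B, chr1:236282171-236282208, minus strand: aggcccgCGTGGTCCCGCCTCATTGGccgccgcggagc
HSP90B1, chr12:103930204-103930246, plus strand: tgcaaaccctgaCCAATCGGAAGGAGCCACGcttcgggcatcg
HSP90B1, chr12:103930309-103930351, plus strand: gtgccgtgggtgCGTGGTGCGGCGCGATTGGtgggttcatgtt
HSPA5, chr9:125241379-125241421, minus strand: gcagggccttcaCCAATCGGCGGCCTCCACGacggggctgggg
PDIA6, chr2:10812841-10812883, minus strand: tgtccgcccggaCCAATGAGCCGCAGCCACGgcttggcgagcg
XBP1, chr22:28800591-28800633, minus strand: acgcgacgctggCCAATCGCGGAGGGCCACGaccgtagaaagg

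The second element, ERSE-II (ATTGG, any base, CCACG), was in 0.0541% of the promoters and in 3 member genes. HYOU1 held it at 2 places.
HERPUD1, chr16:56932013-56932047, plus strand: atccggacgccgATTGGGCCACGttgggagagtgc
HYOU1, chr11:119057262-119057296, minus strand: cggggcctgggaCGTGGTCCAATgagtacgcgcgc
HYOU1, chr11:119057368-119057402, minus strand: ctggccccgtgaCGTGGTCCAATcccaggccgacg
SDF2L1, chr22:21642102-21642136, plus strand: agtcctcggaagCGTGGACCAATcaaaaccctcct

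The third, an XBP1 element (UPRE, TGACGTGG), was in 0.729% of the promoters and in 3 member genes. In HYOU1 it overlapped the upstream ERSE-II.
DNAJC10, chr2:182716120-182716151, plus strand: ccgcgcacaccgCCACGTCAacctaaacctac
HYOU1, chr11:119057374-119057405, minus strand: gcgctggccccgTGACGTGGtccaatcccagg
SSR3, chr3:156554147-156554178, minus strand: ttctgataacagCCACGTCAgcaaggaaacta

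Of these promoters, those of HSPA5 and HERPUD1 are shown whole beside that of OS9, which had the lowest ratio of the member genes with both hairpins and held none of the 3 elements. Capitals again mark the element.
HSPA5, chr9:125241294-125241593, minus strand: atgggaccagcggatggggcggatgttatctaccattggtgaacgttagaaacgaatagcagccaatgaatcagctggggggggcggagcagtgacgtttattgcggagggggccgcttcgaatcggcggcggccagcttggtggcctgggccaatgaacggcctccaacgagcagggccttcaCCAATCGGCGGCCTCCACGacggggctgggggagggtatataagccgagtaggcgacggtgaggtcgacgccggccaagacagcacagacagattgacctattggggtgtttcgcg
HERPUD1, chr16:56931892-56932191, plus strand: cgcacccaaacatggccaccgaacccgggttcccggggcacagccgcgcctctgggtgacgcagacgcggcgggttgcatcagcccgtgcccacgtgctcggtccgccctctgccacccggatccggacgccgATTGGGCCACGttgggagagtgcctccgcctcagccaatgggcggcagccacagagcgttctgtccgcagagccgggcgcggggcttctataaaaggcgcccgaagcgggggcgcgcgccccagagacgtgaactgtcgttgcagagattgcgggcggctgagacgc
OS9, chr12:57693882-57694181, plus strand: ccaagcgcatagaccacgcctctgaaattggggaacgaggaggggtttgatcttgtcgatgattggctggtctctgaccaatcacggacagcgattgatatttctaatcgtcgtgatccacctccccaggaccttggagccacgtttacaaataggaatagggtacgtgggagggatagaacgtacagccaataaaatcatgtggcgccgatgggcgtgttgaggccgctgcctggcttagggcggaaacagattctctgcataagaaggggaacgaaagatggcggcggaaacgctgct

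**Figure D1:**
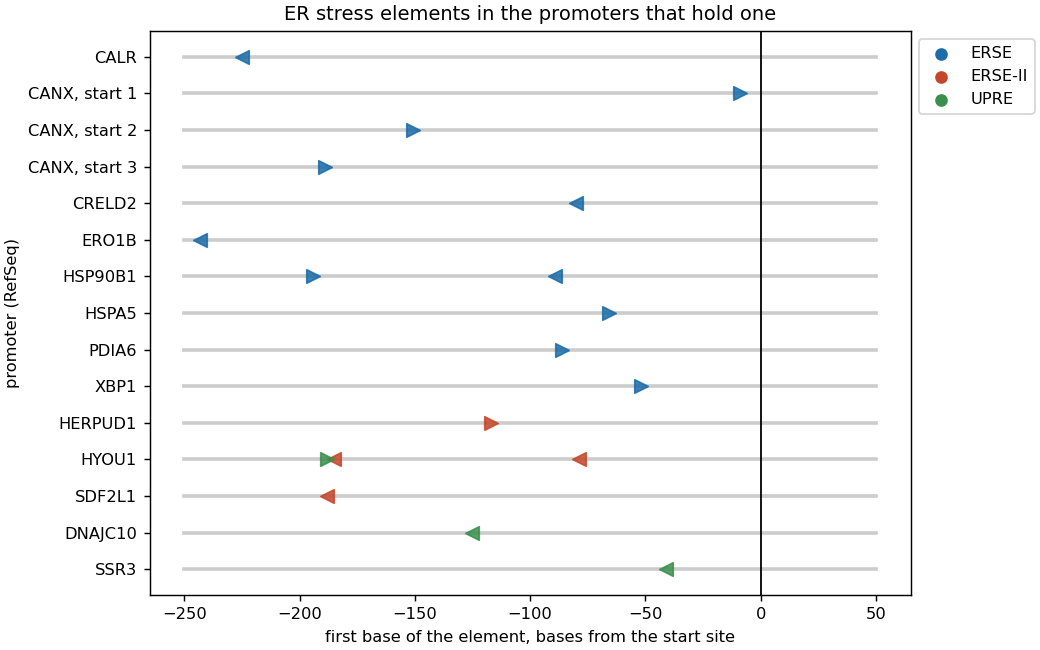
Place of the ER stress elements in the RefSeq promoters that hold one, in bases from the start site, with the arrow pointing along the element. The ERSE of HSPA5 began 66 bases before the start site and that of XBP1 52 bases before it. CANX has a row for each of its 3 RefSeq start sites, and its rows show the same element.

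The member promoters were GC-rich. Their median GC content was 66.0%, with a median of 28 CpG sites, against 58.3% and 14 over 27305 genes. These windows and the H4ac regions are on different genome builds, since the deposited regions are on hg19. A missing match says only that these letters are not in the window.

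The shTIP60-B table held 5508475 shTIP60-B reads and 6706229 control reads over 63299 regions, and 13429202 shTIP60-C reads and 7043106 control reads lay over 66546 regions in the shTIP60-C table. With both libraries added, member promoters had a median of 173 reads in the shTIP60-B table and 332 in the shTIP60-C table, against 180 and 300 over all genes with a promoter region. Of 9 markers of a lung adenocarcinoma line, 7 had a promoter region, and NAPSA and SFTPB had none. No promoter region was listed for the 4 immune or the 3 endothelial markers, and 1 of 4 fibroblast markers, COL1A1, had one. The hairpins act on the KAT5 transcript, so H4ac at its promoter does not check the knockdown. It had 350 reads with shTIP60-B and 402 in the control, deposited M 0.20 (-0.01 to 0.41), and 882 reads with shTIP60-C and 405 in the control, deposited M 0.23 (0.06 to 0.41). M is the authors' log2 ratio of knockdown over control after their rescaling, and the range in parentheses is its 95% counting interval, which covers counting error only.

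Of the 42 genes, 5 lacked a promoter region in at least 1 table. HSP90B1, the ER form of the HSP90 chaperone, ERO1B, an oxidase for disulfide bonds, and SEC61G, a translocon subunit, were named by no region. CRELD2, a secreted stress-response protein, was named only by regions beyond 1000 bp. SEC61B had a promoter region in the shTIP60-C table only. A region named for the microRNA MIR3652, which starts 15 bp inside HSP90B1 in RefSeq, was not counted as a member. It held 29 reads with shTIP60-B and 65 in the control, deposited M -1.06 (-1.77 to -0.43), and 96 reads with shTIP60-C and 65 in the control, deposited M -0.39 (-0.86 to 0.09). VIMP, a degradation factor of the ER membrane, was listed under its newer symbol SELENOS.

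No member promoter passed the rule for a called difference, which asks for at least a 2-fold ratio together with a deposited p no higher than 1e-05. With shTIP60-B 0 of 37 were called in either direction, where 3.52% of all genes were called lower and 1.28% higher. With shTIP60-C 0 of 38 were called, where the rule called 0.0433% of all genes lower and 0.147% higher. OS9 and EDEM2 passed the fold with shTIP60-B, and OS9 also with shTIP60-C, at a deposited p that missed the threshold.

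By the wider measure of a counting interval of M that excludes 0, 10 of 37 members were lower with shTIP60-B and 1 was higher. This is 27.0% and 2.70% of the members, where the same measure took 28.5% of all genes as lower and 16.6% as higher. With shTIP60-C 8 of 38 were lower and 3 higher, which is 21.1% and 7.89%, where all genes gave 13.7% and 15.3%. The members had a median deposited M of -0.27 with shTIP60-B, against -0.13 over all genes, and of -0.04 with shTIP60-C, against 0.00 over all genes. With shTIP60-B 30 of 37 members had a deposited M below 0, as did 58.8% of all genes. With shTIP60-C 22 of 38 did, against 49.9% of all genes.

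**Figure D2:**
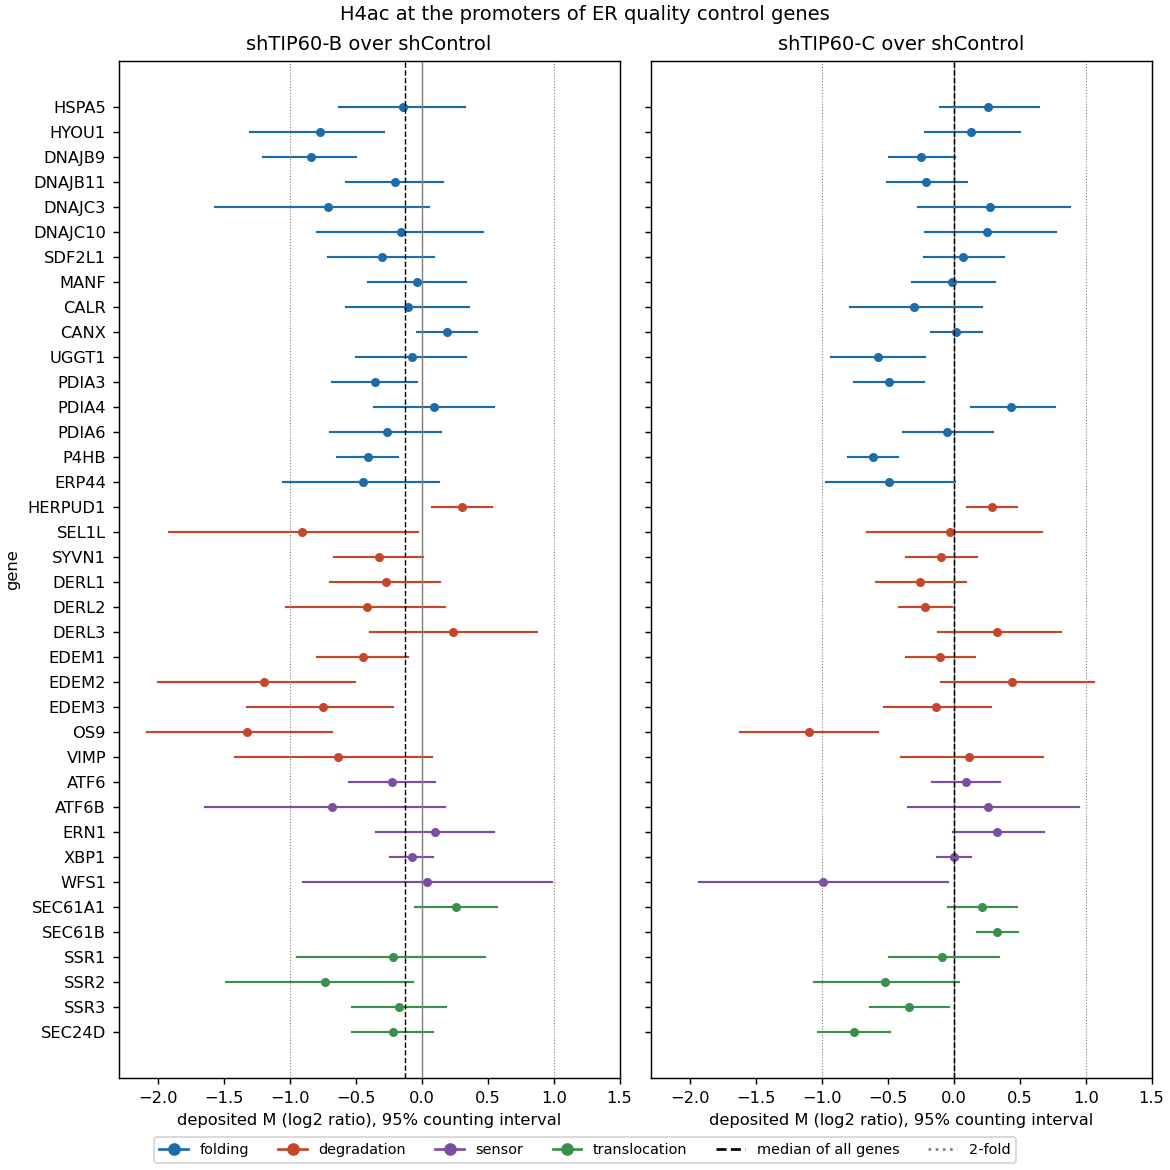
Deposited M of each member promoter with its 95% counting interval, for shTIP60-B over shControl on the left and shTIP60-C over shControl on the right, coloured by role. The dashed line is the median of all genes, and the dotted lines mark a 2-fold difference. OS9 lies at -1.33 and -1.10, HERPUD1 at 0.30 and 0.29, and SEC61B has a value with shTIP60-C only.

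Among the folding genes, 16 of 19 had a promoter region. With shTIP60-B the counting interval lay below 0 at 4 of them (25%) and above 0 at none, where all genes gave 28.5% and 16.6%. With shTIP60-C it lay below 0 at 3 (18.8%) and above 0 at 1 (6.25%), where all genes gave 13.7% and 15.3%. HSPA5, the central ER chaperone, had 68 reads with shTIP60-B and 86 in the control over chr9:128002699-128003783, in its first intron, deposited M -0.14 (-0.63 to 0.33). HSPA5 had 197 reads with shTIP60-C and 86 in the control, deposited M 0.26 (-0.11 to 0.65). Neither interval excluded 0, and the sign with shTIP60-B turned on the region. A wider region that overlaps this one, chr9:128002855-128006912, has its centre at -1217 bp from the start site and so lies outside the promoter rule. It had 342 reads with shTIP60-B and 351 in the control, deposited M 0.36 (0.14 to 0.58), or 0.16 after centring on the chromosome median. The matching region of the shTIP60-C table, chr9:128002749-128007541, had 904 reads with shTIP60-C and 364 in the control, deposited M 0.42 (0.25 to 0.60).

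DNAJB9, a BiP co-chaperone that dampens IRE1, had the lowest folding value with shTIP60-B. It held 101 reads with shTIP60-B and 215 in the control over chr7:108209120-108211219, deposited M -0.84 (-1.20 to -0.50), a fold of 0.558 with a deposited p of 8.16e-07. In its 10 Mb window, M of DNAJB9 with shTIP60-B was -0.42. In the other comparison DNAJB9 had 342 reads with shTIP60-C and 215 in the control, deposited M -0.25 (-0.50 to 0.01). HYOU1, an exchange factor for BiP, was also lower with shTIP60-B alone by its interval. It had 51 reads with shTIP60-B and 98 in the control over chr11:118927048-118928627, deposited M -0.78 (-1.31 to -0.29), and 205 reads with shTIP60-C and 98 in the control, deposited M 0.13 (-0.22 to 0.50).

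P4HB, the main protein disulfide isomerase, was lower with both hairpins. Over chr17:79817683-79819996 it held 244 reads with shTIP60-B and 415 in the control, deposited M -0.41 (-0.64 to -0.18). With shTIP60-C it held 508 reads and 415 in the control, deposited M -0.61 (-0.80 to -0.42), a fold of 0.654 with a deposited p of 1.54e-07. PDIA3, the isomerase that works with calnexin and calreticulin, was also lower with both. It had 134 reads with shTIP60-B and 208 in the control over chr15:44037797-44039488, deposited M -0.35 (-0.68 to -0.04), and 280 reads with shTIP60-C and 208 in the control, deposited M -0.49 (-0.76 to -0.23). After centring on its chromosome, the PDIA3 interval with shTIP60-B included 0.

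PDIA4, another isomerase, was the highest folding gene with shTIP60-C. It had 293 reads with shTIP60-C and 114 in the control over chr7:148724747-148726567, deposited M 0.44 (0.13 to 0.77). With shTIP60-B, over the narrower region chr7:148724918-148725976, it had 80 reads and 87 in the control, deposited M 0.09 (-0.37 to 0.54). CANX, calnexin, was the highest folding gene with shTIP60-B. Over chr5:179124282-179126967 it had 303 reads with shTIP60-B and 346 in the control, deposited M 0.19 (-0.03 to 0.42), and with shTIP60-C, over a largely shared region, 651 reads and 345 in the control, deposited M 0.02 (-0.17 to 0.21). Neither CANX interval excluded 0.

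UGGT1, the sensor of misfolded glycoproteins, differed between the hairpins. It had 89 reads with shTIP60-B and 110 in the control, deposited M -0.08 (-0.50 to 0.34). Over chr2:128847741-128849369 it had 154 reads with shTIP60-C and 120 in the control, deposited M -0.58 (-0.93 to -0.22). The other folding genes, which are CALR, DNAJB11, DNAJC3, DNAJC10, ERP44, MANF, PDIA6 and SDF2L1, had intervals that included 0 with both hairpins. Their deposited M ran between -0.72 (DNAJC3) and -0.03 (MANF) with shTIP60-B, and between -0.49 (ERP44) and 0.27 (DNAJC3) with shTIP60-C. MANF, a secreted survival factor, depended on the region chosen: within 500 bp of the start site its deposited M was -1.45 with shTIP60-B and -0.62 with shTIP60-C.

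All 11 degradation genes had a promoter region. With shTIP60-B the interval lay below 0 at 5 (45.5%) and above 0 at 1 (9.09%), where all genes gave 28.5% and 16.6%. With shTIP60-C it lay below 0 at 2 (18.2%) and above 0 at 1 (9.09%), where all genes gave 13.7% and 15.3%. OS9, a lectin that hands misfolded glycoproteins to the HRD1 ligase complex, had the lowest value of all members with both hairpins. Over chr12:58087756-58088685, in its first intron, it held 25 reads with shTIP60-B and 67 in the control, deposited M -1.33 (-2.08 to -0.68), a fold of 0.399 with a deposited p of 7.63e-05. With shTIP60-C it held 61 reads and 67 in the control over the same region, deposited M -1.10 (-1.62 to -0.57), a fold of 0.468 with a deposited p of 0.000898. The shTIP60-C library is the deeper one, so its 61 reads lie below the control after scaling.

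HERPUD1, a scaffold of the HRD1 complex and a strong target of the unfolded protein response, was higher with both hairpins by its deposited M. It had 311 reads with shTIP60-B and 330 in the control over chr16:56964741-56966876, deposited M 0.30 (0.07 to 0.53), a fold of 1.23. With shTIP60-C it had 746 reads and 329 in the control over chr16:56964972-56966918, deposited M 0.29 (0.10 to 0.48), a fold of 1.22. It was the only member whose interval lay above 0 with shTIP60-B.

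SYVN1 and SEL1L form the core of that ligase complex. SYVN1, which is HRD1 itself, had 122 reads with shTIP60-B and 184 in the control over chr11:64901565-64902878, deposited M -0.32 (-0.67 to 0.01), and 323 reads with shTIP60-C and 183 in the control, deposited M -0.10 (-0.36 to 0.17). SEL1L, its partner, rested on few reads: it had 16 with shTIP60-B and 31 in the control over chr14:81999482-82000258, deposited M -0.91 (-1.92 to -0.03). SEL1L had 60 reads with shTIP60-C and 31 in the control, deposited M -0.03 (-0.66 to 0.67). Neither gene's interval excluded 0 with shTIP60-C.

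The EDEM proteins trim mannose from misfolded glycoproteins, and the intervals of all 3 lay below 0 with shTIP60-B and included 0 with shTIP60-C. After centring on the chromosome median only that of EDEM1 lay below 0 with shTIP60-B. EDEM2 had 23 reads with shTIP60-B and 56 in the control over chr20:33735139-33736107, deposited M -1.20 (-2.00 to -0.51). The region with most reads in the shTIP60-C table was another, chr20:33734323-33735495, with 96 reads with shTIP60-C and 36 in the control, deposited M 0.44 (-0.10 to 1.06). Over the first of these regions EDEM2 had 69 reads with shTIP60-C and 56 in the control, and its deposited M was -0.66, so its sign with shTIP60-C turned on the region. EDEM1 had 115 reads with shTIP60-B and 188 in the control, deposited M -0.45 (-0.80 to -0.11). The mean deposited M over its 3 promoter regions was 0.06 with shTIP60-B, so its sign turned with that choice as well. EDEM3 had 44 reads with shTIP60-B and 82 in the control, deposited M -0.75 (-1.33 to -0.22), and M was -0.41 after centring on its chromosome and -0.14 in its 10 Mb window.

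The derlins, which form the exit channel, and VIMP had intervals that included 0 with shTIP60-B. DERL1 had 85 reads with shTIP60-B and 120 in the control, deposited M -0.27 (-0.70 to 0.13), and 192 reads with shTIP60-C and 120 in the control, deposited M -0.26 (-0.59 to 0.09). DERL2 had 531 reads with shTIP60-C and 330 in the control, deposited M -0.22 (-0.42 to -0.01), and over a narrower region 41 reads with shTIP60-B and 60 in the control, deposited M -0.41 (-1.03 to 0.17). DERL3 had 46 reads with shTIP60-B and 43 in the control, deposited M 0.23 (-0.40 to 0.87), and 136 reads with shTIP60-C and 56 in the control, deposited M 0.33 (-0.12 to 0.82). VIMP had 26 reads with shTIP60-B and 43 in the control, deposited M -0.64 (-1.42 to 0.08), and 95 reads with shTIP60-C and 45 in the control, deposited M 0.11 (-0.40 to 0.67).

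The 5 sensor genes listed do not include EIF2AK3, the gene of PERK, which is given with the further pathway genes below. Of these 5 none had an interval that excluded 0 with shTIP60-B. All genes gave 28.5% below 0 and 16.6% above with that hairpin. With shTIP60-C 1 lay below 0, where all genes gave 13.7% below and 15.3% above. XBP1, the factor made active when IRE1 splices its mRNA, had the largest H4ac signal of the members by reads. It had 539 reads with shTIP60-B and 782 in the control over chr22:29194671-29197881, deposited M -0.08 (-0.24 to 0.08), and 1449 reads with shTIP60-C and 790 in the control, deposited M 0.00 (-0.13 to 0.13). In each table this was the narrowest interval of the members. Scaled by the total reads of the shTIP60-B table in place of the authors' rescaling, M of XBP1 with shTIP60-B was -0.25, below its interval.

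ERN1, the gene of IRE1, had the highest sensor value with both hairpins. It had 83 reads with shTIP60-B and 90 in the control over chr17:62206839-62208505, deposited M 0.10 (-0.35 to 0.55), and 242 reads with shTIP60-C and 101 in the control, deposited M 0.33 (-0.0042 to 0.69). ATF6, the membrane-bound factor cleaved in the Golgi, had 134 reads with shTIP60-B and 190 in the control over chr1:161734464-161736564, deposited M -0.22 (-0.56 to 0.10). ATF6 had 381 reads with shTIP60-C and 190 in the control, deposited M 0.09 (-0.16 to 0.35). ATF6B, its relative, rested on 18 reads with shTIP60-B and 30 in the control, deposited M -0.69 (-1.65 to 0.17), and on 71 with shTIP60-C and 30 in the control, deposited M 0.26 (-0.35 to 0.95).

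WFS1, a membrane protein that restrains ATF6, had the fewest reads of the members. Over chr4:6271732-6272260 it had 21 reads with shTIP60-B and 21 in the control, deposited M 0.04 (-0.90 to 0.98). It also had 21 reads with shTIP60-C and 21 in the control, which in the deeper library gives a deposited M of -0.99 (-1.93 to -0.05) with a deposited p of 0.102. After centring on its chromosome this interval included 0.

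The genes for entry and exit of proteins had a promoter region in 5 of 7 cases with shTIP60-B and 6 of 7 with shTIP60-C. SEC24D, a coat protein of the vesicles that leave the ER, was the lowest with shTIP60-C. It had 240 reads with shTIP60-C and 214 in the control over chr4:119756198-119758202, deposited M -0.76 (-1.03 to -0.49), a fold of 0.591 with a deposited p of 6.69e-06. With shTIP60-B it had 150 reads and 214 in the control, deposited M -0.22 (-0.53 to 0.09). SSR2, a translocon-associated subunit, was the lowest with shTIP60-B, with 28 reads against 50 in the control over chr1:155990063-155991030, deposited M -0.74 (-1.48 to -0.06). SSR2 had 68 reads with shTIP60-C and 50 in the control, deposited M -0.52 (-1.06 to 0.04). With shTIP60-B its M was -0.40 after centring on its chromosome, with an interval that included 0, and 0.0048 in its 10 Mb window.

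SEC61B, a subunit of the translocation channel, was the highest of these with shTIP60-C. It had 1124 reads with shTIP60-C and 485 in the control over chr9:101983535-101985355, deposited M 0.33 (0.18 to 0.49), a fold of 1.26 with a deposited p of 0.000352. SEC61A1, the channel's pore, was the highest with shTIP60-B, with 170 reads against 176 in the control over chr3:127769982-127772092, deposited M 0.26 (-0.05 to 0.57). Over the control peak alone its deposited M with shTIP60-B was -0.30, so its sign turned on the region. With shTIP60-C it had 389 reads and 178 in the control, deposited M 0.21 (-0.04 to 0.48). SSR3, a partner of SSR2, had 117 reads with shTIP60-B and 158 in the control, deposited M -0.17 (-0.53 to 0.18), and 237 reads with shTIP60-C and 158 in the control, deposited M -0.34 (-0.64 to -0.04). SSR1, of the same complex, had 32 reads with shTIP60-B and 40 in the control, deposited M -0.22 (-0.95 to 0.48), and 138 reads with shTIP60-C and 76 in the control, deposited M -0.09 (-0.49 to 0.34).

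Compared by role, degradation genes had the lowest median deposited M with shTIP60-B, at -0.45, with folding at -0.23, translocation at -0.22 and sensors at -0.08. With shTIP60-C the order was another: translocation had -0.22, degradation -0.10, folding -0.03 and sensors 0.09. The roles overlapped with each hairpin. Degradation ran between -1.33 and 0.30 with shTIP60-B, and folding between -0.84 and 0.19.

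The deposited ratios differed between chromosomes. Over the 19 chromosomes that hold members, the median deposited M of all regions lay between -0.69 (chromosome 20) and 0.24 (chromosome 3) with shTIP60-B, and between -0.10 and 0.09 with shTIP60-C. Each M was therefore also centred on the median of its chromosome. The member median was then -0.31 with shTIP60-B, against -0.04 over all genes, and -0.04 with shTIP60-C, against 0.03. The role medians became -0.46 for degradation, -0.29 for folding, -0.07 for translocation and 0.11 for sensors with shTIP60-B. With shTIP60-C they became -0.08, -0.04, -0.21 and 0.15 in the same order of roles.

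With centring the interval lay below 0 at 10 members and above 0 at 2 with shTIP60-B, where all genes gave 21.6% and 19.1%. With shTIP60-C it lay below 0 at 8 and above 0 at 3, where all genes gave 12.1% and 16.9%. The genes were not all the same: with shTIP60-B, PDIA3, EDEM2, EDEM3 and SSR2 no longer lay below 0, DNAJB11, ERP44, SYVN1 and SSR3 now did, and CANX joined HERPUD1 above 0. With shTIP60-C, WFS1 no longer lay below 0 and ERP44 now did. HERPUD1 had 0.79 after centring with shTIP60-B, as chromosome 16 had a median deposited M of -0.49. EDEM2 moved to -0.51 on chromosome 20. OS9 had -1.12 with shTIP60-B and -1.01 with shTIP60-C. ATF6 changed sign with shTIP60-B, to 0.11.

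**Figure D3:**
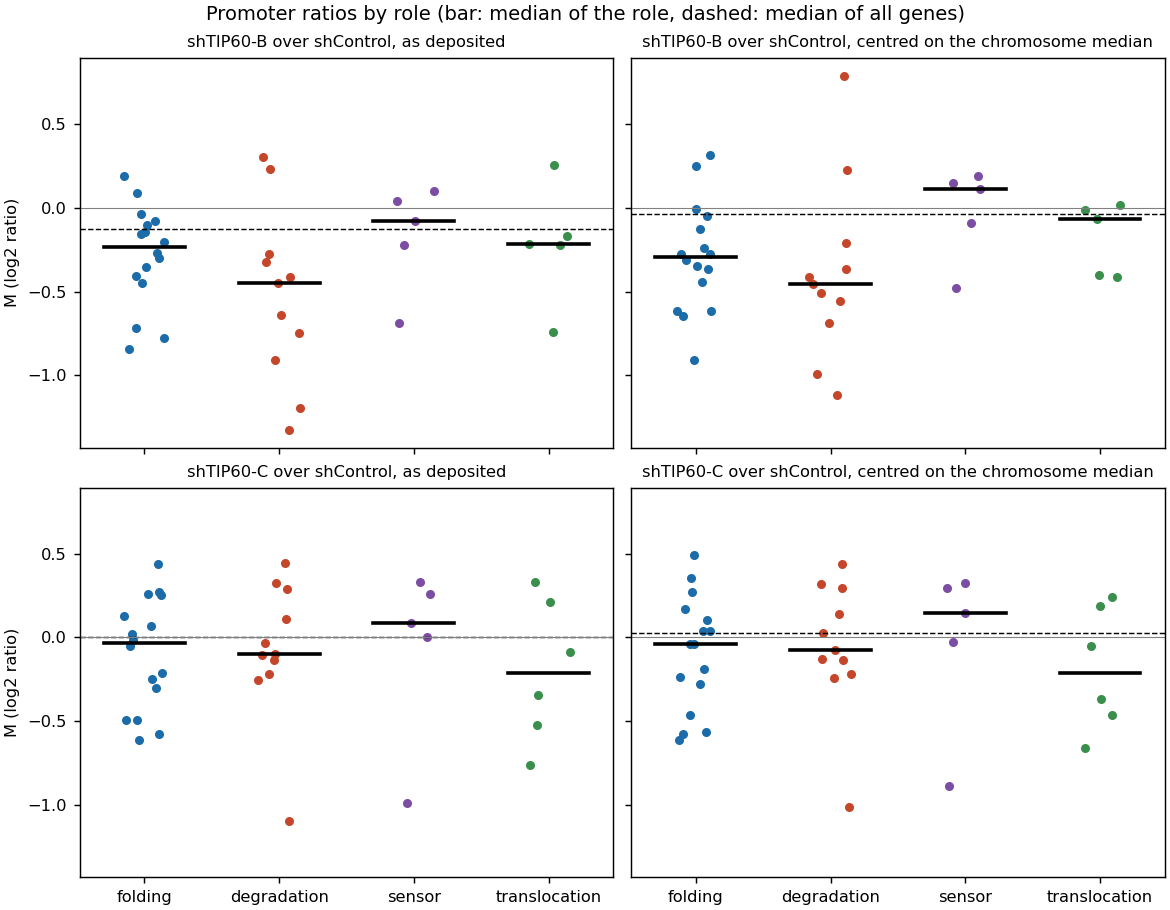
M of each member promoter by role, for shTIP60-B in the upper row and shTIP60-C in the lower row, as deposited on the left and centred on the chromosome median on the right. Thick bars are role medians, and the dashed line is the median of all genes. With shTIP60-B the degradation median is -0.45 as deposited and -0.46 after centring.

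The regions of the 2 tables differ in extent, so the 3 H4ac libraries were also read over identical control peaks, which 36 members had within 1000 bp. The level is in reads per kb and per 1000000 reads in all control peaks. OS9 had 9.46 with shTIP60-B, 9.72 with shTIP60-C and 19.8 in the control. HERPUD1 had 56.8, 58.9 and 48.3 in the same order of libraries, and P4HB had 37.1, 32.5 and 49.3. XBP1 had the highest level of the 36 members, at 64.2 with shTIP60-B, 72.6 with shTIP60-C and 73.7 in the control. DNAJC10 had the lowest control level, with 11.2, 13.4 and 10.7. The median over the 36 genes was 19.4 with shTIP60-B, 19.5 with shTIP60-C and 22.1 in the control.

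The ratio of the knockdown libraries at these peaks does not use the control reads. Its median over the members, as log2 of shTIP60-B over shTIP60-C, was -0.12, against -0.04 over 10775 genes. The counting interval lay below 0 at 4 members and above 0 at 3, where all genes gave 22.3% and 15.7%. HYOU1 was the lowest, at -0.74 (-1.23 to -0.31). The others below 0 by the interval were DNAJC3, at -0.74 (-1.53 to -0.10), DNAJB9, at -0.50 (-0.85 to -0.19), and XBP1, at -0.17 (-0.32 to -0.03). ATF6B (-0.68), SEL1L (-0.60) and VIMP (-0.52) had lower ratios than DNAJB9, with intervals that included 0. WFS1 was the highest, at 1.25 (0.30 to 2.19), with UGGT1 at 0.78 (0.26 to 1.29) and SEC24D at 0.57 (0.26 to 0.87). OS9 had -0.01 (-0.77 to 0.65), and HERPUD1 -0.05 (-0.25 to 0.14). Centred on the chromosome median of this ratio, the interval lay below 0 at 8 of the 36 members and above 0 at 4, where all genes gave 21.0% and 13.7%. HSPA5 (-0.42), SEL1L (-0.78), EDEM1 (-0.50) and SEC61A1 (-0.45) were then lower as well, and HERPUD1 (0.28) was higher. The centred median of the members was -0.12, against -0.05 over all genes.

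**Figure D4:**
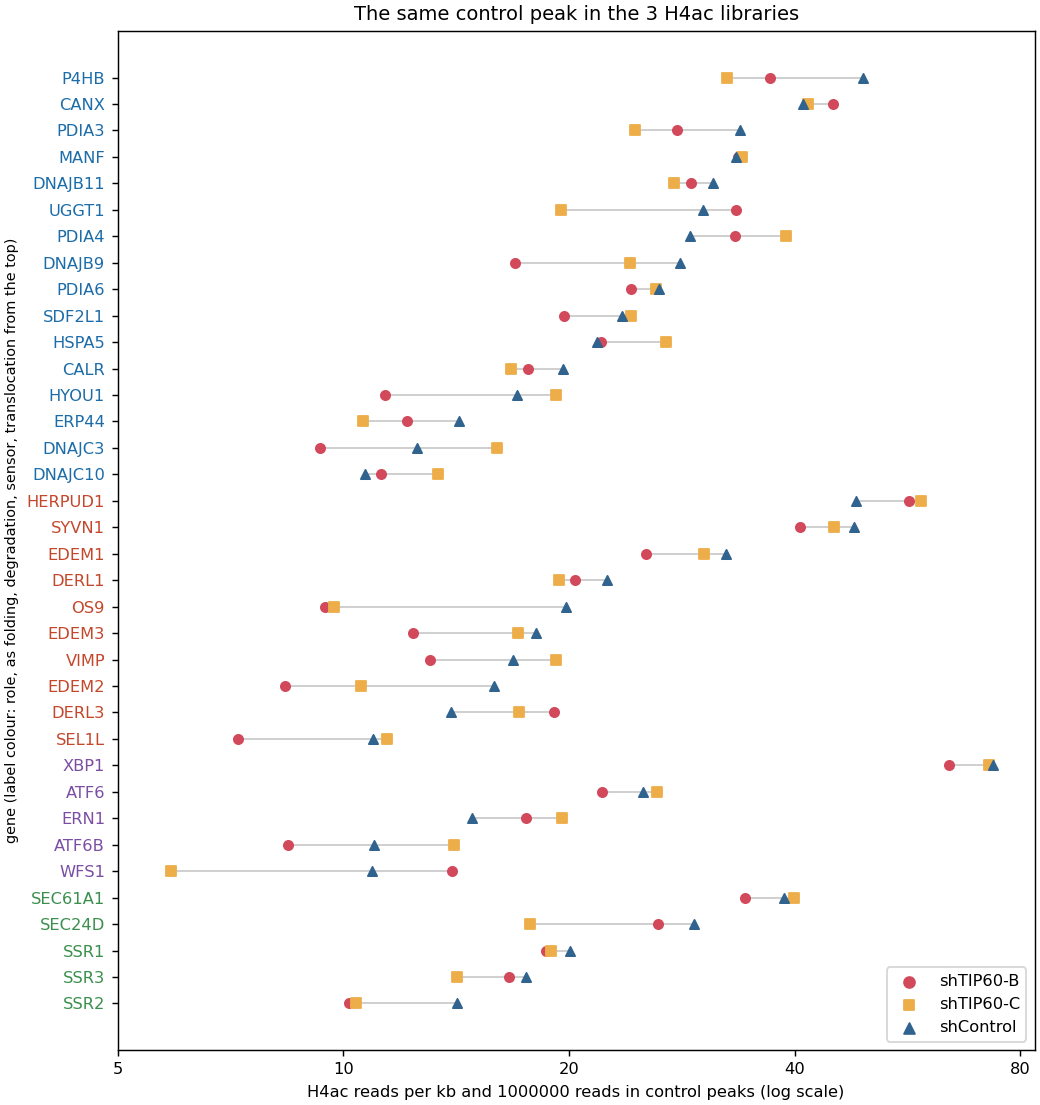
H4ac level over the same control peak in shTIP60-B (circles), shTIP60-C (squares) and shControl (triangles), in reads per kb and 1000000 control-peak reads on a log axis, for 36 member genes grouped by role. At OS9 both knockdown libraries lie near 9.46 and 9.72, left of the control at 19.8, and at HERPUD1 both lie right of it.

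The genes with an ERSE or ERSE-II shown above can be set beside those without. Of 11 such genes 8 had a promoter region under their own name, and HSP90B1, ERO1B and CRELD2 had none. The region named for MIR3652, which starts inside HSP90B1, was left out here. Its deposited M was -1.06 with shTIP60-B, lower than that of any of the 8, and -0.39 with shTIP60-C. With shTIP60-B the median deposited M of the 8 was -0.12, with HYOU1 below 0 and HERPUD1 above 0 by the counting interval. The 25 genes without either element had a median deposited M of -0.41, and the counting interval lay below 0 at 8 of them, where it did so at 28.5% of all genes. With shTIP60-C the medians of the deposited M were 0.04 for the 8 genes with an element and -0.09 for 26 without. The interval then lay below 0 at 0 and above 0 at 1 of the 8, and below 0 at 6 and above 0 at 2 of the 26. All genes gave 13.7% below 0 and 15.3% above with shTIP60-C. The groups overlapped: HYOU1 with 2 copies of ERSE-II had -0.78 with shTIP60-B, and CANX with an ERSE had 0.19.

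A further 99 genes of the pathway were examined, among them signal recognition, glycosylation and vesicle coat genes. With shTIP60-B 2 of 88 with a promoter region were called lower and 0 higher, where the rule called 3.52% and 1.28% of all genes. With shTIP60-C 0 of 91 were called in either direction, where all genes gave 0.0433% lower and 0.147% higher. CREB3L2, a relative of ATF6 that acts in secretory cells, had 25 reads with shTIP60-B and 86 in the control over chr7:137685893-137687083, deposited M -1.68 (-2.43 to -1.06) with a deposited p of 4.64e-08. With shTIP60-C it had 136 reads and 87 in the control, deposited M -0.30 (-0.69 to 0.11). SRPRA, a subunit of the receptor for the signal recognition particle, had 24 reads with shTIP60-B and 77 in the control over chr11:126137926-126138894, deposited M -1.58 (-2.35 to -0.95) with a deposited p of 9.25e-07. With shTIP60-C, over a wider region, it had 196 reads and 137 in the control, deposited M -0.42 (-0.74 to -0.09). EIF2AK3, the gene of PERK, was not called with either hairpin. It had 126 reads with shTIP60-B and 213 in the control, deposited M -0.48 (-0.82 to -0.16), or -0.45 after centring on its chromosome. With shTIP60-C, over a narrower region, it had 155 reads and 103 in the control, deposited M -0.35 (-0.72 to 0.03).

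By the counting interval 39 of the 88 were lower and 18 higher with shTIP60-B, which is 44.3% and 20.5%, where all genes gave 28.5% and 16.6%. Centred on the chromosome median these counts were 24 and 13, which is 27.3% and 14.8%, where all genes gave 21.6% and 19.1%. With shTIP60-C 19 of the 91 were lower and 10 higher, which is 20.9% and 11.0%, where all genes gave 13.7% and 15.3%. The median deposited M was -0.29 with shTIP60-B and -0.01 with shTIP60-C. By role, the median with shTIP60-B was 0.18 for further folding genes, -0.24 for degradation, -0.41 for signalling and -0.51 for translocation and export. Centred on the chromosome median these became 0.30, -0.14, -0.08 and -0.25. With shTIP60-C the deposited medians were 0.02, 0.06, 0.09 and -0.15 in the same order of roles. The folding median of this list was above 0, and that of the members was below it, with shTIP60-B. Of 14 further signalling genes, the interval with shTIP60-B lay below 0 at 9 (64.3%) and above 0 at 3 (21.4%). All genes gave 28.5% and 16.6%. After centring on the chromosome median these were 4 (28.6%) and 3 (21.4%), where all genes gave 21.6% and 19.1%. With shTIP60-C the deposited M gave 2 (14.3%) below 0 and 4 (28.6%) above, where all genes gave 13.7% and 15.3%.

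Beyond 1000 bp of a start site, 53 regions in the shTIP60-B table and 51 in the shTIP60-C table named a member, in each case 19 genes. Many of these regions overlap, as a stretch can be listed from both the knockdown peaks and the control peaks. Near MANF, for instance, the shTIP60-B table lists chr3:51377057-51378828 and chr3:51377140-51378892. The median and the counts below therefore take in some reads repeatedly. The median deposited M of the regions was 0.31 with shTIP60-B, against -0.06 over 40667 such regions, and 0.12 with shTIP60-C, against -0.03 over 43139. Centred on the chromosome median it was 0.11 with shTIP60-B and 0.09 with shTIP60-C, against 0.02 and -0.02 over the regions of genes with a promoter region. With shTIP60-B 3 of the 53 were called higher and 0 lower, where 2.61% of all such regions were called higher and 3.13% lower. With shTIP60-C 0 of the 51 were called, where 0.0603% of all such regions were called lower and 0.283% higher. CRELD2 accounted for 2 of these, which overlap each other. The larger, chr22:50327579-50329098, lay 16060 bp from the start site and had 119 reads with shTIP60-B and 58 in the control, deposited M 1.29 (0.83 to 1.78). The region there in the shTIP60-C table, chr22:50327863-50329081, had 122 reads with shTIP60-C and 53 in the control, deposited M 0.24 (-0.22 to 0.75). The third, chr3:127730087-127731087, lay at -40625 bp from the start site of SEC61A1 and had 57 reads with shTIP60-B and 21 in the control, deposited M 1.57 (0.86 to 2.40). In the shTIP60-C table chr3:127730265-127730981 had 58 reads with shTIP60-C and 20 in the control, deposited M 0.53 (-0.18 to 1.38). A region is named for its nearest start site, which does not show that it acts on that gene.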

How the data were processed

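Chromatin was crosslinked and sonicated and sequenced as paired-end reads on a NextSeq500, per the labels' protocols. Per the submitters' processing notes, the tools were Bowtie2 and MACS 1.4.2 and the build hg19. The 6 libraries (3 H4ac, 3 input) were grouped by title, and the input libraries were not used here. Each deposited table was read as giving whole-number read counts per region of 2 libraries, not normalised. The meaning of its columns was inferred from the header text and from equal control reads in both tables. M is the authors' deposited log2 ratio, with 1 added to each count and a rescaling whose size differs between regions. The deposited peak score is a −log10 p-value, and no deposited p was above 0.5. A missing p (11 regions with shTIP60-B, 1 with shTIP60-C) was not called, and an infinite score (11 and 3) passed the p threshold.

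Gene names and distances came from the deposited annotation. Counting intervals are exact Clopper-Pearson intervals (95%), moved by the offset between the deposited M and the log2 read ratio; reads are not independent molecules. Regions overlapped between the tables at 37 of 37 members, were identical at 18, and overlapped reciprocally by at least 50% at 33. shTIP60-B over shTIP60-C was scaled by totals over the 36034 control peaks that both tables list. The ratio, the interval and the call rule were tested on simulated counts, scaled by table totals and called with an exact binomial p. The authors' rescaling and the deposited p were not simulated. Values in sentences of their own were given to the 3 lowest and 3 highest members per hairpin and the extremes of each role. The same was done for 8 genes named by role. Members with an interval off 0, EIF2AK3, and CRELD2 and SEC61A1 distal regions were named after their values were seen. The members and lists were chosen with earlier results of these data known. Python 3.11.15, pandas 2.3.3 and scipy 1.17.1 were used.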

Additional observations from a re-analysis of the deposited data

How the results depend on the processing

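With 1 library per group no library could be left out. No paired analysis was possible because each group has 1 library. Of 739 alternative values of single member ratios 719 stayed within their counting error, as did 119 of 126 medians, and 93 of 112 counts of calls stayed within 1.5 times. The settings of at least 50 reads and without chromosomes 16 and 20 only left genes out, so they could not move a single ratio. The settings on control peaks and on distance returned the same region for members already represented by it. Wide intervals, as at WFS1 and SEL1L, also leave room for large shifts. The share that stayed is therefore no measure of how firm the ratios are. The calls moved with the rule. For members lower with shTIP60-B the count was 1 at a fold of 1.5, 1 at a deposited p of at most 0.001 and 10 by the counting interval, which also gave 1 higher. For members with shTIP60-C these were 2, 1 and 8 lower, with 3 higher by the interval. For the further pathway genes with shTIP60-B, 6 were lower and 2 higher at a fold of 1.5, 4 lower at a deposited p of at most 0.001, 1 lower by an exact binomial p, 4 lower over control peaks, 39 lower and 18 higher by the interval, and 1 higher within 3000 bp. With shTIP60-C, 1 was higher at a fold of 1.5, and 19 were lower and 10 higher by the interval. Among these alternatives the share of all genes was computed for the interval only, so the other counts cannot be set against one. Centred on all promoter regions, the median M with shTIP60-B was -0.15 for members and -0.17 for pathway genes; the pathway median was -0.11 centred on chromosomes and -0.12 in 10 Mb windows, where the translocation median was 0.0048. With shTIP60-C the pathway median was -0.0613 over control peaks, and the folding median -0.14 as a mean over promoter regions. The cause of these shifts was not tested. Centred on all genes, a choice made after seeing the data, the shTIP60-B over shTIP60-C median was -0.08. Depth limits SEL1L, ATF6B and WFS1 most.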
